A study of Homo sapiens with 4 samples.

Results

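The genes described here encode the subunits of the human proteasome and the proteins that assemble, regulate and feed it. They were chosen by name: every listed gene called PSMA to PSMG with a number, together with *POMP*, *ADRM1*, *SHFM1* (now named *SEM1*), *PAAF1*, *VCP*, *NPLOC4*, *UFD1L* (now *UFD1*), *NFE2L1*, *NFE2L2*, *DDI2* and *NGLY1*. Of the 10147 genes listed, 52 met the rule: 15 genes of the 20S core, 19 genes of the 19S cap, 3 activators and 15 assembly, inhibitor, p97 and regulator genes. The rule used names only and no measured value. The genes *PSMA8*, *PSMB8*, *PSMB9*, *PSMB11*, *PSME2*, *NFE2L2* and *DDI2* were not listed, so no value is given for them.

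RNA synthesis was measured by TT-seq, in which cells receive a short pulse of 4-thiouridine (4sU). The RNA is then extracted and fragmented, and the fragments that carry 4sU are purified and sequenced. The cells were K562, a human erythroleukemia line, whose own *IWS1* gene had been edited so that the elongation factor IWS1 carries an N-terminal dTAG, the handle by which the dTAG7 ligand directs a protein to degradation. Control cells received the solvent DMSO, and dIWS1 cells received 500 nM dTAG7, each for 1 h. Cells were then labelled with 500 µM 4sU for 5 min. All groups carry the same edit, so unedited cells form no part of the comparison. The labels name 2 control and 2 dIWS1 libraries, as biological duplicates. The comparison asks how far the synthesis of proteasome RNA changes when IWS1 is removed, and the ligand works by recruiting the ubiquitin-proteasome system itself.

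The deposited table holds 1 mean normalized count per gene over 4 library columns, and whole reads per column were recovered from those means. Only 3 different columns came out: a control column that had entered the mean 2 times, and 2 different dIWS1 columns, called column 1 and column 2. The control was therefore counted as 1 sample, with no spread of its own, and p-values measure only the spread of the 2 dIWS1 columns against a trend shared by all genes. The columns carry no replicate numbers. The table does not name its direction. It was read as dIWS1 over control, the way the study plots it. Depth ran from 20512882 to 29588862 reads in genes per column. All 12 K562 marker genes searched for were listed, and none of 4 lymphoid, 2 epithelial or 2 fibroblast markers was. *IWS1* RNA itself fell by 0.55 on the log2 scale (standard error 0.15, adjusted p = 0.0008377). This checks nothing about the depletion, since the ligand acts on the protein.

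The proteasome degrades proteins that carry ubiquitin chains. Its 20S core is a barrel of stacked rings, with alpha subunits forming the outer rings and the gate, and beta subunits forming the inner rings that hold the proteolytic sites. The 19S cap sits on the end of the barrel, where ubiquitin receptors bind the substrate, a deubiquitinase removes the chain and a ring of ATPases unfolds and threads the protein. Activators such as the PSME proteins can bind the core in place of the cap. When proteasome activity falls, the transcription factor encoded by *NFE2L1* (NRF1) is known to raise the subunit genes together through antioxidant response elements in their promoters, after the p97 ATPase (*VCP*), the glycanase *NGLY1* and the protease *DDI2* have processed it.

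The promoters of the genes were searched for the core of that element, because it is the shared letter pattern best known for coordinating them. RefSeq promoters (GRCh38.p14, from 250 bases before to 50 bases after the start) were found for 45 of the 52 genes, 59 promoters in all. *PSMB7*, *PSMG3*, *PSMA7*, *UFD1L*, *PSMB6*, *PSMB1* and *PSMD4* had no entry. One site each from several roles follows, in the direction that reads as the motif, with the core TGACNNNGC in capitals.
*PSMA4*, chr15:78540651-78540677, plus strand: tgggcacgaTGACTCTGCaccgcctcc
*PSMB3*, chr17:38752628-38752654, plus strand: cctccgtttTGACTTTGCaaccaaact
*PSMC5*, chr17:63827655-63827681, minus strand: gggcggcgcTGACACAGCagatccggt
*PSMD12*, chr17:67366725-67366751, minus strand: gacaaaaccTGACGCTGCaggctggag
*PSMG2*, chr18:12658690-12658716, plus strand: agtttcccgTGACCCCGCggccgctct
*PSME4*, chr2:53971010-53971036, plus strand: ctctgctggTGACGCTGCagccgccgg
*VCP*, chr9:35072797-35072823, minus strand: gcggccaatTGACGTGGCgttactagg

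On either strand the core was present in 17 of 59 promoters of the proteasome genes (28.8%), beside 15% of the promoters of all genes tested and 13.3% of all promoters in the table. The 16 genes that hold it also include *ADRM1*, *PSMC4*, *PSMD1*, *PSMD3*, *PSMD5*, *PSMD9*, *PSME1*, *PSMG1* and *SHFM1*. The genes with the core had a median log2 ratio of −0.32 and those without it −0.33. The median change after IWS1 depletion was thus nearly the same with and without these letters. A CCAAT box was found in 42.4% of the promoters (35.3% over all genes tested), and the ETS core CCGGAAG in 28.8% (18.8%). The TATA box TATAAA was found in 8.47% (5.55%). An exact nuclear respiratory factor site was present in 3.39% (2.05%), namely in 2 promoters of *PSMA4* alone. Counted by gene that is 2.22%, beside 2.78% of the genes tested. An exact YY1 site was present in 1.69% of the promoters (2.03%). These shares describe letters in a window and were not tested.

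All 52 genes had enough reads to be tested. After IWS1 depletion 35 of them were lower than the control (67.3%), beside 65.6% of the 9915 genes tested, which is nearly the same share. None was higher, where the share over all genes was 0.101%. No proteasome gene had a fitted ratio above 0, 41 were lower at an unadjusted p under 0.05, and none was higher by either limma fit. In 51 of 52 genes both dIWS1 columns lay below the control, against 93% of all genes tested. The exception was *PSMD6*. The median log2 ratio was −0.34 (lowest −0.79, highest −0.05), where the median over all genes tested was −0.42. Column 1 gave a deeper median than column 2 (−0.44 and −0.28), and 48 of 52 genes were lower in column 1. The medians over all genes had the same order, at −0.47 and −0.37. Fewer cells and less new RNA per cell cannot be told apart in such bulk samples, although the spike-in RNA was added to the lysate of a fixed number of cells.

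**Figure D1:**
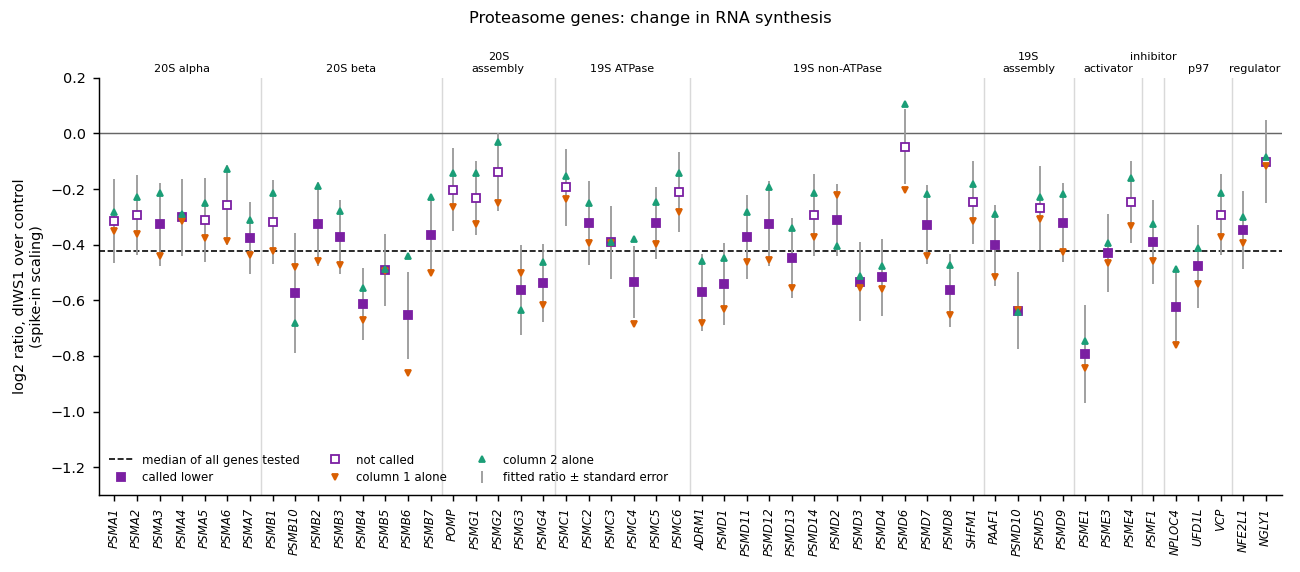
Log2 ratio of normalized counts, dIWS1 over control with spike-in scaling, for each of the 52 genes grouped by role. Squares are the fitted ratio (filled where adjusted p is under 0.05) with its standard error, triangles are the ratios of dIWS1 columns 1 and 2 alone, and the dashed line is the median of all genes tested (−0.42). Nearly every gene lies below 0, and *PSMD6* is the gene with a column above it.

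Of the 7 alpha subunit genes of the core 3 were called lower, beside 65.6% of all genes tested. The fitted log2 ratios of all 7 ran from −0.38 to −0.26, the narrowest range among the roles with more than 4 genes. *PSMA7* had normalized counts of 601.2 in the control, 444 in column 1 and 484 in column 2, a log2 ratio of −0.38 ± 0.13 (standard error, adjusted p = 0.007787). *PSMA3* gave 2887.3, 2128.4 and 2487.4, and *PSMA4* gave 1347.1, 1082.3 and 1102.8. Both passed narrowly, with adjusted p-values of 0.04452 and 0.04486. The other four missed the threshold at nearly the same size: *PSMA1* at −0.32 (adjusted p = 0.05328), *PSMA5* at −0.31 (0.05766), *PSMA2* at −0.29 (0.06352) and *PSMA6* at −0.26 (0.09999). For each alpha gene both dIWS1 columns lay below the control column, as they did in 93% of all genes tested.

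Of the 8 beta subunit genes 7 were called lower, beside 65.6% of all genes tested, and the median log2 ratio was −0.43. Whether beta and alpha genes differ was not tested. *PSMB6*, which encodes the caspase-like catalytic subunit, had the lowest value of the core. Its normalized counts were 237.7 in the control, 130.9 in column 1 and 175.1 in column 2, a ratio of −0.65 ± 0.16 (adjusted p = 0.0001444), and its dIWS1 columns were far apart at −0.86 and −0.44. *PSMB5*, the chymotrypsin-like subunit that proteasome inhibitor drugs bind, went from 810.2 to 574.9 and 577.5 (−0.49 ± 0.13, adjusted p = 0.0005865), with columns that nearly coincided. *PSMB7*, the trypsin-like subunit, fell less, from 10246.7 to 7235.1 and 8744.4 (−0.37 ± 0.15, adjusted p = 0.02303). All constitutive catalytic genes were thus called lower, where the share over all genes tested was 65.6%. Column 2 of *PSMB7* lay at −0.23 only, and its call was lost when limma was run on log2 values.

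Among the structural beta genes, *PSMB4* changed most. It lies at chr1:151399573-151401937 and is 2.365 kb long, and its normalized counts went from 765.7 to 481.3 and 521 (−0.61 ± 0.13, adjusted p = 1.933e-05). *PSMB3* fell by 0.37 on the log2 scale and *PSMB2* by 0.33 (adjusted p = 0.01007 and 0.04706). *PSMB1* had a ratio of −0.32 and just missed the threshold (adjusted p = 0.05215). Of the inducible subunits that replace the catalytic ones in the immunoproteasome, *PSMB10* alone was listed. It was the least counted gene here, with 95 reads in the control and 67 and 54 in the dIWS1 columns. The exact Poisson 95% intervals, which cover counting error only, were 76.9 to 116, 51.9 to 85.1 and 40.6 to 70.5. Its ratio was −0.57 ± 0.22 (adjusted p = 0.01508), and the intervals of the control and column 1 overlap.

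**Figure D2:**
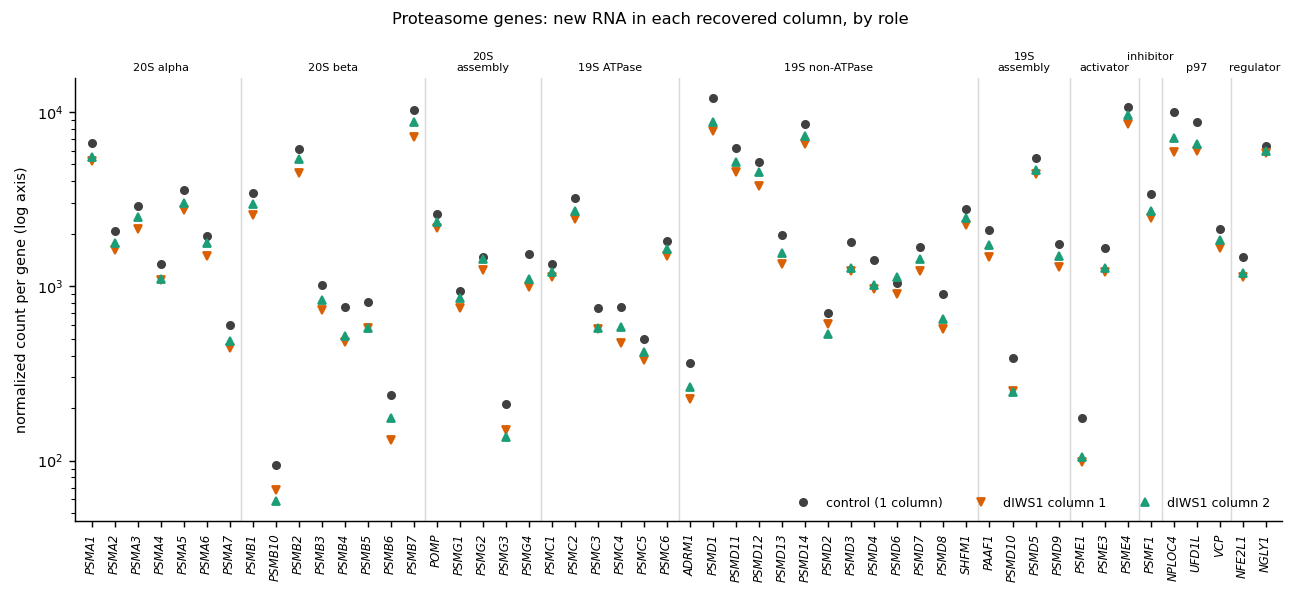
Normalized counts of the 52 genes in the control column (circles, counted once) and in dIWS1 columns 1 and 2 (triangles), on a log axis, grouped by role. Counts run from under 100 for *PSMB10* to 12025.6 for *PSMD1* in the control, and the circles lie above both triangles in every gene but *PSMD6*. Over all genes tested the control lay above both dIWS1 columns in 93%.

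Of the 5 genes for assembly of the core 2 were called lower, beside 65.6% of all genes tested. *PSMG1* and *PSMG2* encode one chaperone pair for the alpha ring, *PSMG3* and *PSMG4* encode the other, and *POMP* encodes the maturation factor that helps to close the beta ring. *PSMG3* went from 211 normalized counts to 149 and 136 (−0.56 ± 0.16, adjusted p = 0.001396), and *PSMG4* from 1525.4 to 994.8 and 1107.2 (−0.54 ± 0.14, adjusted p = 0.0004294). *PSMG1* had 942, 752.1 and 852.7 (−0.23 ± 0.13, adjusted p = 0.1043), *PSMG2* had 1466.9, 1233.4 and 1436.7 (−0.14 ± 0.14, adjusted p = 0.3615), and *POMP* had 2584.2, 2152.6 and 2340.6 (−0.20 ± 0.15, adjusted p = 0.207). The genes of one chaperone pair were therefore called lower and those of the other were not. Whether the pairs differ from each other was not tested.

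In the 19S cap 14 of 19 genes were called lower, beside 65.6% of all genes tested. The median log2 ratio was −0.33, the same as in the core. Of the 6 ATPase genes, which form the unfolding ring, 4 were called. *PSMC4* fell most among them, from 764.7 to 475.2 and 587.3 (−0.53 ± 0.13, adjusted p = 0.000189), and its columns stood apart at −0.69 and −0.38. *PSMC3* fell by 0.39 on the log2 scale, with almost equal columns (adjusted p = 0.005679). *PSMC5* and *PSMC2* fell by 0.32 each (adjusted p = 0.0231 and 0.04905). *PSMC1* (1334.2, 1133.7 and 1200.7) and *PSMC6* (1807.7, 1486.1 and 1639) had ratios of −0.19 and −0.21 and did not pass (adjusted p = 0.1981 and 0.1745). The ring therefore held genes with ratios from −0.53 to −0.19.

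Of the 13 non-ATPase genes of the cap 10 were called lower, beside 65.6% of all genes tested. Genes of ubiquitin receptors were among them: *ADRM1* went from 361.5 to 225.5 and 263.2 (−0.57 ± 0.14, adjusted p = 0.0001841), and *PSMD4* from 1413.4 to 959.5 and 1014.7 (−0.52 ± 0.14, adjusted p = 0.0006268). The scaffold gene *PSMD1*, the most counted gene here, went from 12025.6 to 7754.6 and 8806.4 (−0.54 ± 0.15, adjusted p = 0.0007611). Its partner *PSMD2* fell by 0.31 (adjusted p = 0.02651) and was one of 4 genes in which column 2 was the lower one. *PSMD14*, which encodes the deubiquitinase of the cap, had 8513.3, 6581.7 and 7329.4 (−0.29 ± 0.15) and did not pass (adjusted p = 0.06941).

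The remaining genes of the lid, the part of the cap that surrounds the deubiquitinase, covered most of the range seen in the list. *PSMD8* and *PSMD3* fell by 0.56 and 0.53 on the log2 scale (adjusted p = 9.672e-05 and 0.00062), and *PSMD13* by 0.45 (0.004519). *PSMD11* fell by 0.37, *PSMD7* by 0.33 and *PSMD12* by 0.32 (adjusted p = 0.0234, 0.0334 and 0.04913). *SHFM1*, a small subunit that also binds BRCA2, had a ratio of −0.25 and did not pass (adjusted p = 0.1249). *PSMD6*, at chr3:64010551-64024007, had the highest ratio of all 52 genes. Its normalized counts were 1045 in the control, 907.2 in column 1 and 1124.6 in column 2, a ratio of −0.05 ± 0.13 (adjusted p = 0.7489). One dIWS1 column thus lay below the control and the other above it.

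Among the 4 genes for assembly of the cap base, *PSMD10* (gankyrin) went from 387.3 to 249.7 and 248 (−0.64 ± 0.14, adjusted p = 2.591e-05), with columns that coincided. *PAAF1* fell by 0.40 on the log2 scale and *PSMD9* by 0.32 (adjusted p = 0.01112 and 0.03852). *PSMD5* had a ratio of −0.27 and did not pass (adjusted p = 0.1007). No role group was free of called genes, where 65.6% of all genes tested were called lower.

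The fitted log2 ratios of the 3 activator genes ran from −0.79 to −0.25, and whether the genes differ was not tested. *PSME1*, at chr14:24136194-24138962, encodes a subunit of the interferon-inducible activator and had the lowest ratio of all 52 genes. It had 177 reads in the control (exact Poisson 95% interval 152 to 205) and 97 and 96 in the dIWS1 columns (78.7 to 118 and 77.8 to 117). The ratio was −0.79 ± 0.18 (adjusted p = 4.209e-05), and 57.6% of the control level remained. *PSME3*, which encodes the nuclear activator, went from 1668 to 1208.2 and 1268.2 (−0.43 ± 0.14, adjusted p = 0.005358). *PSME4*, whose product recognises acetylated histones, had 10725.1, 8522.9 and 9601.5 and did not pass (−0.25 ± 0.15, adjusted p = 0.1238). In all 3 genes both dIWS1 columns lay below the control, as in 93% of all genes tested. The inhibitor gene *PSMF1* fell by 0.39 on the log2 scale (adjusted p = 0.01723).

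The p97 complex extracts ubiquitylated proteins and hands them to the proteasome, with the products of *NPLOC4* and *UFD1L* as a joint substrate receptor. *NPLOC4*, at chr17:81556885-81637112, went from 9980.2 to 5889 and 7119.5 (−0.62 ± 0.15, adjusted p = 0.0001274). *UFD1L* went from 8711.4 to 5987.6 and 6543.1 (−0.48 ± 0.15, adjusted p = 0.003383). *VCP*, the ATPase itself, had 2140.5, 1653.2 and 1844.6 and did not pass (−0.29 ± 0.15, adjusted p = 0.06471). Both genes of the receptor were called lower and their ATPase was not, where 65.6% of all genes tested were called lower. Whether the 3 genes differ from each other was not tested. In each of the 3 genes both dIWS1 columns lay below the control, as in 93% of all genes tested.

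Of the regulators, *NFE2L1* went from 1478.8 to 1126.6 and 1199.6 (−0.35 ± 0.14, adjusted p = 0.02276), with 78.7% of the control level left. *NGLY1*, at chr3:25718944-25790039, stood next to *PSMD6* at the top of the list. It had 6347.1, 5847.7 and 5985.2 normalized counts, a ratio of −0.10 ± 0.15 that did not pass (adjusted p = 0.5346). Its columns were close together at −0.12 and −0.08.

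Since most genes were lowered, the same fit was made with each column rescaled so that the median gene did not change. That removed a shift of −0.47 from column 1 and −0.36 from column 2, and it shows which genes fell by more or less than the rest. On this scale 7 of the 52 genes were higher, beside 15.1% of all genes tested, and 1 was lower, beside 16.2%. The median over the list was 0.08. The estimate lay above 0 in 34 genes, and 29 genes lay above the median gene in both columns, 16 below it in both and 7 on different sides. At an unadjusted p under 0.05, 11 genes were higher and 3 lower.

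The genes that were higher relative to the median gene were found in several roles, and none of them was called in either direction under spike-in scaling. *PSMD6* was higher by 0.37 ± 0.09 (adjusted p = 0.001038), *NGLY1* by 0.31 ± 0.07 (0.0003422) and *PSMG2* by 0.27 ± 0.08 (0.006031). The 2 ATPase genes *PSMC1* and *PSMC6* were higher by 0.22 ± 0.08 and 0.20 ± 0.07 (adjusted p = 0.02789 and 0.03364). *POMP* was higher by 0.21 ± 0.07 (0.02062) and *PSME4* by 0.17 ± 0.06 (0.03685). Against these, *NPLOC4* fell by 0.21 ± 0.07 relative to the median gene (0.01416). In each of these 8 genes both columns had the sign of the estimate. With genes of low mean kept in the fit, the call remained for *NGLY1* but not for the other 7 genes, whose adjusted p-values were then above 0.05.

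**Figure D3:**
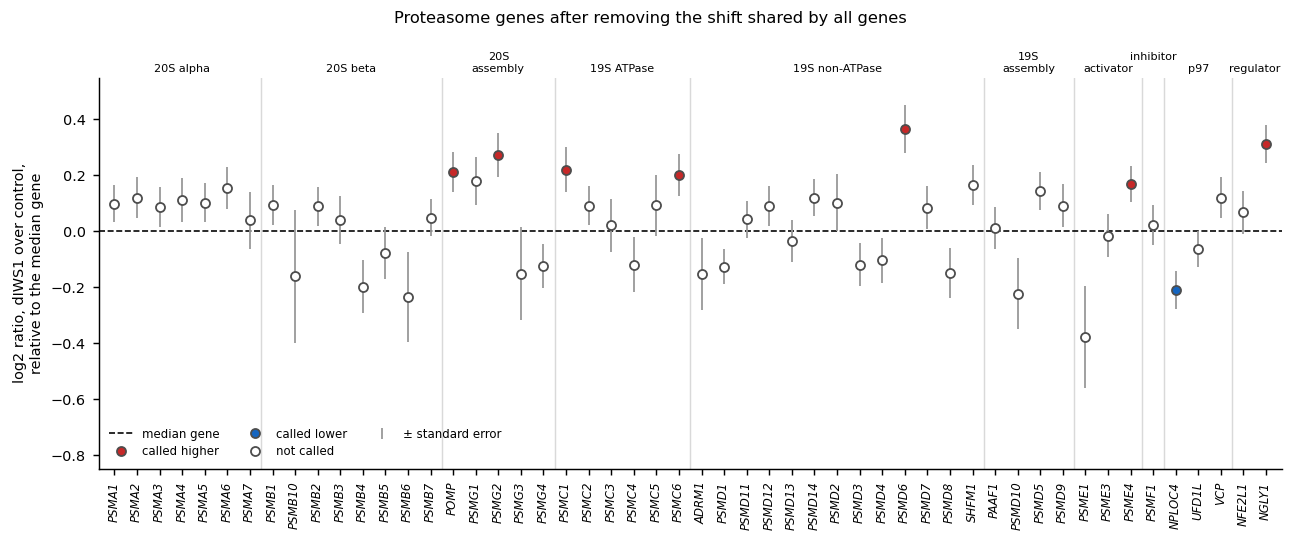
Log2 ratio of the 52 genes after each column was rescaled to the median gene, with standard errors. Filled points have an adjusted p under 0.05: 7 genes lie above the median gene, led by *PSMD6* at 0.37, and *NPLOC4* lies below it at −0.21.

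The 20S core, the 19S cap and the activators were set side by side on both scales. Under spike-in scaling 65.6% of all genes tested were called lower. Among the core, cap and activator genes these were 10 of 15, 14 of 19 and 2 of 3. Their medians were −0.33, −0.33 and −0.43, and the medians from column 1 and column 2 alone were −0.44 and −0.28 for the core, −0.44 and −0.28 for the cap, and −0.47 and −0.40 for the activators. The medians over all genes tested also differed between the columns (−0.47 and −0.37). The gap between the columns is therefore no yardstick for a difference between core and cap. Relative to the median gene no core gene was called in either direction by limma voom (1 lower and 1 higher at an unadjusted p under 0.05) or by limma on log2 values (none in either direction even unadjusted). Of the 19 cap genes 3 were higher and none lower (nor at an unadjusted p under 0.05), and 1 of the 3 activators was higher. Over all genes tested 15.1% were higher and 16.2% lower by limma voom. Within the core, the alpha genes had estimates from 0.04 to 0.16 on that scale and the beta genes from −0.23 to 0.10. No test was made between these groups, because genes of one group share the same 3 columns and are not replicates.

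Summed over genes, the core held 44.1% of the core and cap signal in the control, 44.6% in dIWS1 column 1 and 45% in column 2. Per kilobase of gene span, with *SHFM1* left out of the cap, the share was 48.4%, 47.8% and 48%. Its direction thus differed between the 2 measures. With 1 control column against 2, the smallest p that a permutation can give is 0.333. All 52 genes together took 0.532% of the signal of the genes tested in the control, 0.556% in column 1 and 0.572% in column 2.

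Levels can be compared between genes only per length. Normalized counts were divided by the gene span in RefSeq (GRCh38.p14), since TT-seq reads fall on introns as well as exons. *SHFM1* was left out, since the current span of that locus may not be the one that was counted. The other 51 genes ran from 21.9 per kb (*PSMG2*) to 323.7 per kb (*PSMB4*) in the control, a 14.8-fold range, with a median of 103.7 against 41.3 for all genes tested. Next to *PSMB4* came *UFD1L* at 297.5, *PSMD5* at 203.1 and *PSMB1* at 188.4. The core ranged from 40.1 (*PSMB10*) to 323.7, which is 8.07-fold, and the cap from 60.6 (*ADRM1*) to 180.4 (*PSMD12*), which is 2.98-fold. The core range is set by *PSMB4* and *PSMB10*, and no test of the spread was made. In the order of these levels neighbours differed by 1.02-fold at the median, less than the 1.11-fold between the dIWS1 columns of a typical gene, and only 4 of 50 neighbouring pairs were farther apart than that. That fold includes a shift between the dIWS1 columns shared by all genes, and the order comes from 1 control column with no spread. It therefore cannot settle which positions are resolved, and genes with close levels should not be read as ordered. The pair *PSMB4* and *UFD1L* at the top lay above *PSMD5*, and *PSMG2* at the bottom lay below *PAAF1*, by more than 1.11-fold.

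The log2 ratio was also set against gene length. The classes were cut at the quartiles of the spans of all genes tested. The 17 proteasome genes under 11.2 kb had a median log2 ratio of −0.53, beside −0.47 for all genes of that length. The medians were −0.32 for the 18 genes from 11.2 to 28.1 kb (all genes −0.39), −0.37 for the 9 genes from 28.1 to 64.6 kb (−0.35) and −0.29 for the 7 longer genes (−0.49). The shortest class thus had the lowest median, the other classes were not in order of length, and no test was made between them. The short genes include *PSME1*, *PSMB6*, *PSMB4* and *PSMD10*, the lowest of the list apart from *NPLOC4*, which is 80.23 kb long. Across 51 genes the log2 ratio and the log2 span had a Pearson's r of 0.47 and a Spearman's rho of 0.451, while over all 9870 genes tested with a span these were 0.0135 and −0.0175. The points share the same 3 columns, and short genes also have fewer reads: the log2 control count had an r of 0.422 with the ratio, and the log2 level per kb had an r of −0.04. The part of read number in the relation was not tested.

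**Figure D4:**
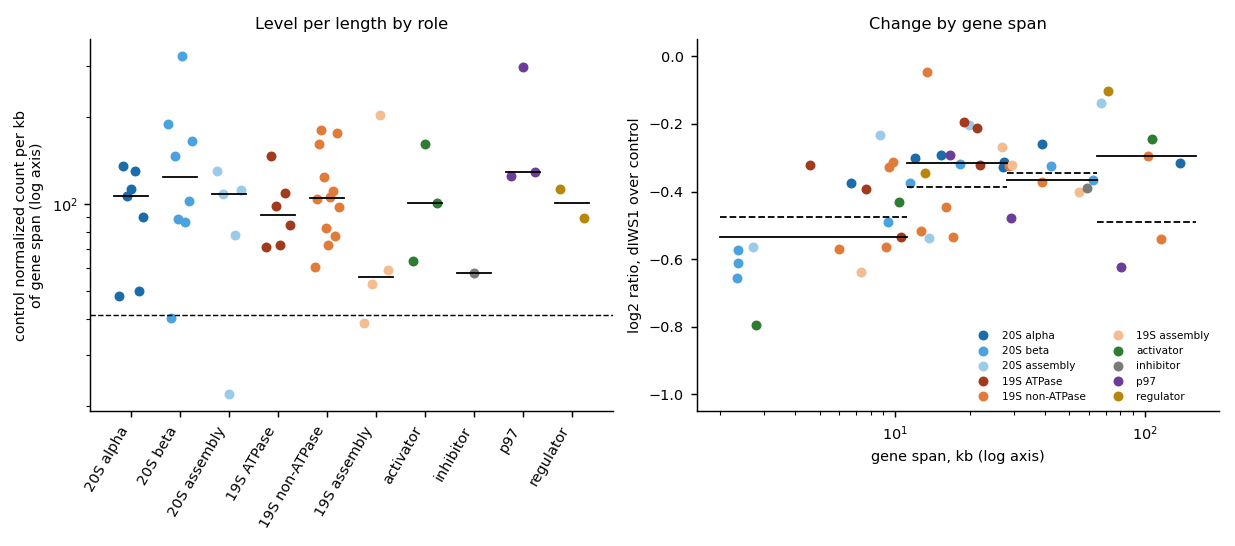
Left, control normalized count per kb of gene span by role on a log axis, with group medians (bars) and the median of all genes tested (dashed, 41.3). Right, log2 ratio (dIWS1 over control) against gene span on a log axis, with the medians of the proteasome genes (solid) and of all genes tested (dashed) in 4 length classes, where the shortest class of proteasome genes sits at −0.53.

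The genes were spread over the genome, with 9 of 52 on chromosome 17 (17.3%, beside 6.05% of genes tested) and 6 on chromosome 14 (11.5%, beside 3.35%). The group on chromosome 17 is *PSMB3*, *PSMB6*, *PSMC5*, *PSMD3*, *PSMD11*, *PSMD12*, *PSME3*, *NFE2L1* and *NPLOC4*. Log2 ratios on chromosome 14 ran from −0.79 (*PSME1*) to −0.19 (*PSMC1*), and those on chromosome 17 from −0.65 (*PSMB6*) to −0.32 (*PSMC5*).

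Other genes of the ubiquitin-proteasome route were counted as lists. Of 59 such genes 51 were tested, 28 were lower (65.6% over all genes tested) and none was higher under spike-in scaling, with a median log2 ratio of −0.33. Relative to the median gene 4 were lower and 15 higher, beside 16.2% and 15.1% over all genes tested. Among the ubiquitin precursor genes, *UBB* went from 1342.1 to 875.9 and 890.8 (−0.60, adjusted p = 6.35e-05), and *RPS27A* fell by 0.46 on the log2 scale (adjusted p = 0.004434). Of 5 shuttle genes, whose products carry ubiquitylated proteins to the cap, 3 were lower. *UBQLN2* and *UBQLN4* were among them, at −0.49 and −0.31 (adjusted p = 0.009262 and 0.02725), while *UBQLN1* had a ratio of −0.22 that did not pass (adjusted p = 0.1738). Among 10 proteasome-associated genes 4 were lower, among them *USP14*, the deubiquitinase that docks on the cap (−0.33, adjusted p = 0.04628). *AKIRIN2*, which brings proteasomes into the nucleus, did not pass (−0.19, adjusted p = 0.2516). Relative to the median gene *AKIRIN2* and *UBQLN1* were called higher by limma voom, at 0.23 and 0.19 (adjusted p = 0.01271 and 0.02705).

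Of 20 genes for p97 cofactors 12 were lower. *ASPSCR1* (−0.84, adjusted p = 7.374e-09) and *FAF1* (−0.69, adjusted p = 2.576e-06) were also lower relative to the median gene, by the values −0.42 and −0.28 (adjusted p = 0.0004721 and 5.172e-05). Of the 12 partner and target genes of NRF1 and NRF2 that were tested, 5 were lower and none was higher under spike-in scaling, and 6 were higher relative to the median gene, where the shares over all genes tested were 65.6%, 0.101% and 15.1%. The small MAF genes, whose products pair with NRF1, were among the lower ones, with *MAFK* at −0.61 and *MAFG* at −0.53 (adjusted p = 2.36e-05 and 0.0002591). *GCLC*, which encodes the catalytic subunit of the first enzyme of glutathione synthesis, had the highest ratio of all the lists, with 3856, 3937.7 and 4303.7 normalized counts. Its ratio was 0.09 (adjusted p = 0.5678) under spike-in scaling and 0.51 (adjusted p = 2.511e-07) relative to the median gene. *NQO1* had ratios of 0.02 (adjusted p = 0.8729) and 0.44 (adjusted p = 0.004722) on the same scales.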

How the data were processed

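TT-seq reads were aligned by the authors with STAR 2.6.0 to GRCh38 with added spike-in sequences. Unique pairs were counted per RefSeq gene by strand, overlapping and weakly transcribed genes were removed, and the authors ran DESeq2 with spike-in size factors. The RefSeq release is not given in the sources used here. The deposited table gives for each gene a mean signal (normalized count) over 4 columns and the authors' own comparison in further columns: log2 fold change, its standard error, a Wald score, and a raw and an adjusted p-value. The deposited log2 fold change served only as a key to which recovered columns form the numerator. None of its values, and nothing from the other comparison columns, was used or printed.

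Each mean was written as a sum of whole reads times 3 steps (1 read divided by 4 size factors). One solution was found for 10134 of 10136 genes with a mean above 0 (99.98%) and for 0 of 1200 randomly shifted means. Above a mean of 300 the search was first limited to dIWS1 columns of similar size, so a single solution there holds within that limit. Where no solution was found, a wider search followed for all but the highest means. The shifted means did not get that wider search. The recovered columns summed to 29588862 (control), 20512882 and 20727515 (dIWS1) reads over genes. Their size factors were 1.0096, 0.993212 and 0.919442. Genes with a mean of at least 10 (9915) were fitted with limma 3.58.1 voom in R 4.3.3, with the control counted once, 1 residual degree of freedom, two-sided tests and Benjamini-Hochberg adjustment over all genes tested. The call threshold was 0.05. Log2 ratios of single columns had no pseudocount. The rescaled fit set the median of genes with a mean of at least 100 to 0. Recovery and fit were tested on simulated data. The study's own design of 2 against 2 libraries could not be repeated. The plan had foreseen this use of recovered reads.

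Symbols, spans and promoters came from RefSeq (GRCh38.p14), which matched 10099 genes. Promoter motifs were searched on both strands by exact letters, with CCAAT as the CCAAT box. All genes of the name rule could be named, together with listed genes of the ubiquitin route and *IWS1*. Some genes of those lists are not reported here by name. The members and lists were chosen with earlier results of these data known. The scripts ran under Python 3.11.15 (numba 0.67.0, numpy 2.4.6, scipy 1.17.1, pandas 2.3.3, matplotlib 3.10.9). Alternatives were the control entered 2 times, limma on log2 values with a pseudocount of 0.5, other minimum means, thresholds and scalings, a minimum change, and each dIWS1 column alone.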

Additional observations from a re-analysis of the deposited data

How the results depend on the processing

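Counts of genes depended mainly on scaling, because every column ratio moves with it. With columns scaled by total reads, 1466 of all genes were lower (6507 with spike-ins) and 1994 higher (10), and of the proteasome genes 1 was lower (35) and 11 higher (0). The medians then turned to 0.10 for the proteasome genes, 0.12 for the core, 0.11 for the cap and 0.012 for the activators. Rescaled to the median gene they were 0.077, 0.088, 0.086 and −0.016. Under total-read scaling these log2 ratios changed sign: *PSMC1* 0.25, *PSMC2* 0.12, *PSMC3* 0.050, *PSMC5* 0.12, *PSMC6* 0.23, *PAAF1* 0.039, *PSMD5* 0.17, *PSMD9* 0.12, *PSMD11* 0.07, *PSMD12* 0.12, *PSMD14* 0.15, *PSMD2* 0.13, *PSMD6* 0.39, *PSMD7* 0.11, *SHFM1* 0.19, *PSMA3* 0.11, *PSMA4* 0.14, *PSMA6* 0.18, *PSMA7* 0.067, *POMP* 0.24, *PSMG2* 0.30, *PSMB2* 0.12, *PSMB3* 0.067, *PSMB7* 0.076, *PSME3* 0.012, *PSME4* 0.20, *PSMF1* 0.051, *NFE2L1* 0.095, *NGLY1* 0.34, *PSMA1* 0.13, *PSMA2* 0.15, *PSMA5* 0.13, *PSMG1* 0.21, *PSMB1* 0.12 and *VCP* 0.15.

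With spike-in scaling, 23 of the 52 proteasome genes and 5462 of the 9915 genes tested were lower by limma on log2 values. At an adjusted p under 0.01 these were 19 and 4908, and with the control entered 2 times they were 46 and 7821. How near the share of the proteasome genes lay to that of all genes thus depended on the setting. With a minimum log2 change of 0.5, 14 proteasome genes were lower. On log2 values the calls of *NFE2L1*, *PSMA3*, *PSMA4*, *PSMB2*, *PSMB7*, *PSMC2*, *PSMD11*, *PSMD12*, *PSMD2*, *PSMD7*, *PSMD9* and *PSMF1* were lost, as were those of *PSMC6* and *PSME4* relative to the median gene. That minimum left 3741 of all genes lower and 3 higher. The higher genes of all numbered 46 with the control entered 2 times, 6 at an adjusted p under 0.01 and 18 under 0.1. Relative to the median gene, entering the control 2 times gave 2753 of all genes lower and 2633 higher, and of the proteasome genes 9 lower and 18 higher (core 1 and 3, cap 4 and 7, activators 1 and 1). With no minimum mean these were 636, 446, 0 and 1, and at an adjusted p under 0.01 they were 1046, 898, 0 and 3. The cause of the drop without a minimum mean was not tested. With the control entered 2 times the call of *NPLOC4* relative to the median gene was lost, and of the calls under spike-in scaling those of *PSMB2* and *PSMD12* were.

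From 1 dIWS1 column alone the medians ranged from −0.44 to −0.28 for the proteasome genes, the core and the cap alike, and from −0.47 to −0.40 for the activators. Column 2 alone gave a ratio more than 1.5 times smaller than the fitted one for the called genes *PSMA3*, *PSMB2*, *PSMB7* and *PSMD12* (−0.22, −0.19, −0.23 and −0.19). Calls from 1 column have no residual degrees of freedom and were not made. The mean share of core signal in the dIWS1 columns exceeded that of the control by 0.70 percentage points (0.51 to 0.88 from 1 column) and lay at −0.53 per kb of span. No paired analysis was possible because the recovered columns carry no replicate numbers. The control is 1 sample, so its spread is not part of any p-value.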

Other observations

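Of the antisense genes named after proteasome genes, 4 were listed, and they were chosen after their values were seen. *PSMD6-AS2* had 540.8 normalized counts in the control and 173.2 and 172.9 in the dIWS1 columns, a log2 ratio of −1.64 ± 0.14 (limma voom, adjusted p = 1.59e-27), beside −0.05 for *PSMD6*. Its span of chr3:64004022-64012243 overlaps the *PSMD6* span in GRCh38.p14. *PSMG3-AS1* fell from 176.3 to 74.5 and 110.9 (−0.96, adjusted p = 1.189e-06), beside −0.56 for *PSMG3*. *PSMD5-AS1* fell from 946.9 to 541.7 and 467.7 (−0.91, adjusted p = 3.091e-10), beside −0.27 for *PSMD5*. *PSMA3-AS1* had 3990.7, 3170.5 and 3371.6 and did not pass (−0.29, adjusted p = 0.08102), beside −0.33 for *PSMA3*. The span of *PSMA3-AS1* (chr14:58265365-58298137) also overlaps that of *PSMA3*, while those of *PSMG3-AS1* and *PSMD5-AS1* do not overlap their partners. Reads were counted by strand, and the differences between the partners were not tested.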
